A study of Mus musculus with 4 samples.

Results

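The genes of the phagocyte oxidase, of the Fc receptors for IgG with their shared chain, of the integrin chain Itgam, of lysozyme and of the SLAM family member Slamf9 were followed in the brain of the mouse model of Hunter syndrome. They were 9 genes listed by name (Cybb, Cyba, Ncf1, Fcer1g, Fcgr2b, Fcgr3, Itgam, Lyz2 and Slamf9), and their symbols were matched to the gene identifiers of the count table. Of the 9, 8 were analysed, out of 12700 genes in all, and Cybb was not analysed here. RNA was sequenced from the cerebral cortex (Cx) and from an area holding midbrain, diencephalon and hippocampus (M) of C57BL/6 mice aged 9 months, either Ids-ko, in which the gene of the lysosomal enzyme iduronate-2-sulfatase is disrupted, or wild type (wt). Each of the 4 libraries was made from the pooled RNA of 7 mice, and since both areas were taken from every brain, the libraries labelled CxH and MH come, by the methods of the study, from the same Ids-ko mice and CxWT and MWT from the same wt mice. CxH is Cx of Ids-ko, CxWT is Cx of wt, MH is M of Ids-ko and MWT is M of wt. In the M area the striatum was included as well. With 1 library per condition, a test on reads compares libraries and not conditions, and every interval and standard error given here covers counting error only.

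Phagocytes such as microglia, the resident macrophages of the brain, take up particles through surface receptors and attack them with oxidants and enzymes. The phagocyte oxidase is a membrane complex of gp91phox (the Cybb product) and p22phox (Cyba), which makes superoxide once cytosolic subunits, among them p47phox (Ncf1), are recruited. Fc receptors bind antibody on a coated target, with Fcgr3 passing an activating signal through the common gamma chain Fcer1g and Fcgr2b an inhibitory one. Itgam (CD11b) pairs with Itgb2 to form complement receptor 3, Lyz2 is the lysozyme of macrophages and granulocytes, and Slamf9 is a surface protein of the SLAM family found on myeloid cells.

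The libraries were checked first against genes that their labels imply. Levels are RPM, the reads of a gene per 1000000 aligned reads of its library, and reads on genes ran from 16380080 (MWT) to 23475080 (CxH). A count of 0 allows up to 3 reads, or 0.0779 (CxH) to 0.104 RPM (MWT) when divided by the aligned reads. Ids itself was at 135 RPM in CxH, 155 in MWT, 354 in CxWT and 368 in MH, so that it was low in the library labelled MWT and not in the one labelled MH. The summed level of 12 markers of cortical excitatory neurons was 1907 RPM in CxH, 305 in MWT, 361 in CxWT and 1792 in MH. That of the 13 analysed of 15 markers of midbrain and diencephalon was 22.9, 438, 503 and 34.6 RPM in the same order. By these genes CxH was like MH and CxWT like MWT, against the area labels of CxWT and MH, and Ids was low in CxH and MWT. The libraries keep their labelled names here, all 6 pairs of libraries were compared, and every direction between Ids-ko and wt or between Cx and M is one between labels.

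**Figure D1:**
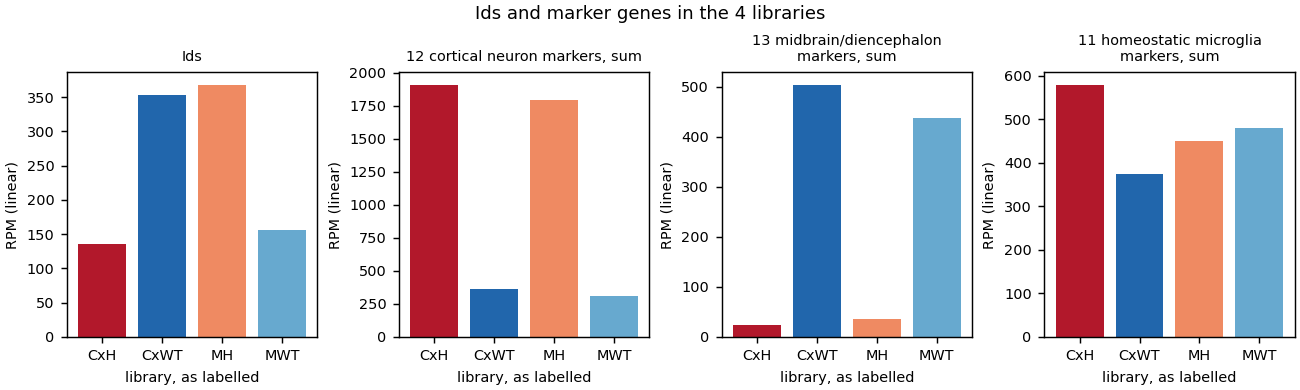
Levels in RPM (linear axes from 0) of Ids and of 3 summed marker lists, each bar being 1 library. Cortical markers were high in CxH (1907 RPM) and MH (1792 RPM), midbrain and diencephalon markers in CxWT (503 RPM) and MWT (438 RPM), and Ids was low in CxH (135 RPM) and MWT (155 RPM).

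Most of the 8 genes shared a pattern, with high levels in CxH and MWT and low levels in CxWT and MH. Summed over the 8, the level was 177 RPM in CxH, 172 in MWT, 74.8 in CxWT and 87.1 in MH. For 7 of the 8, all but Ncf1, both CxH and MWT lay above both MH and CxWT, as they did for 1146 of the 12700 genes of the table (9.02%). The span from the lowest to the highest library was widest for Slamf9 (4.02-fold), Lyz2 (3.90-fold) and Fcgr2b (3.60-fold) and narrowest for Itgam (1.56-fold) and Ncf1 (1.79-fold). Per kilobase of transcript, the mean level over the libraries was highest for Lyz2, at 36.8 RPKM, followed by Fcgr3 at 17.0 and Fcer1g at 15.7. The other members ran from 5.78 RPKM (Itgam) to 1.57 (Slamf9). In pooled tissue RNA, a change in the number of cells of a type and a change of RNA per cell cannot be told apart.

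**Figure D2:**
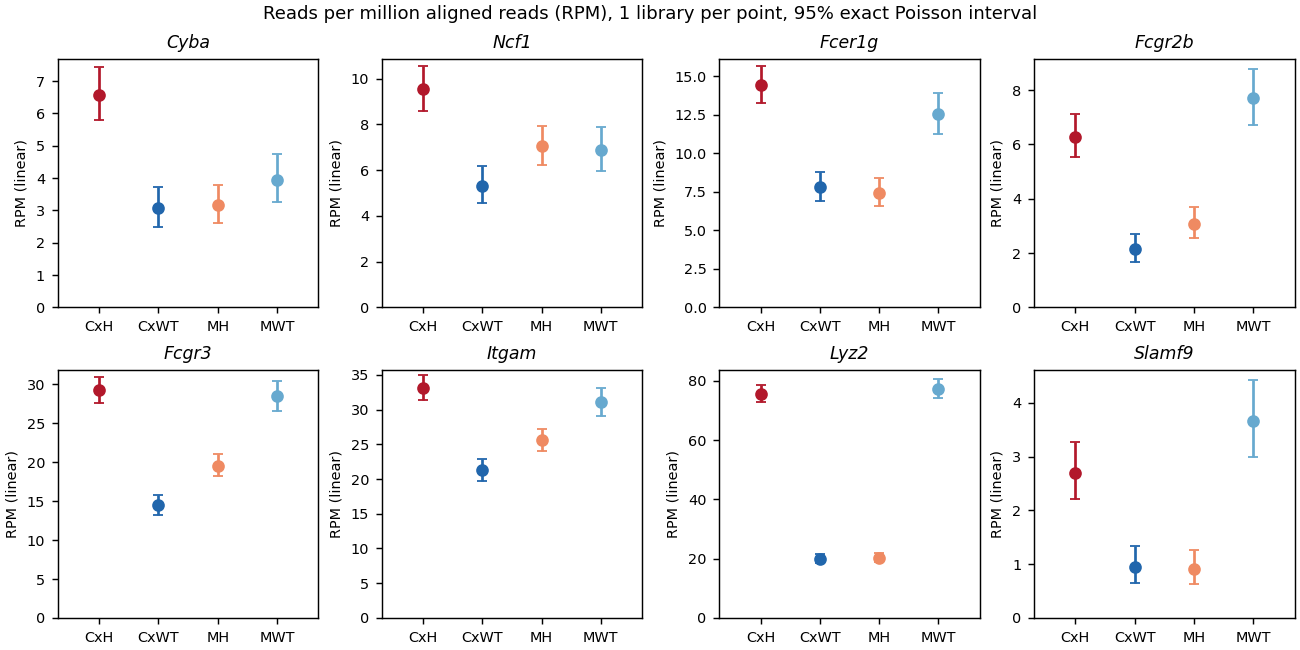
Level of each of the 8 genes in the 4 libraries, in RPM on linear axes from 0, 1 point per library, with 95% exact Poisson intervals from the reads. Lyz2 and Slamf9 show the widest gap between CxH and MWT on one side and CxWT and MH on the other, and for Ncf1 MWT (6.87 RPM) and MH (7.04 RPM) lie together.

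The oxidase genes were Cyba and Ncf1. Cyba, on chr8:124948672-124956840 on the minus strand of NCBI37/mm9, was at 6.57 RPM in CxH (253 reads), 3.94 in MWT (114 reads), 3.06 in CxWT (103 reads) and 3.16 in MH (118 reads). CxH stood apart, being 1.67-fold above MWT (95% exact interval 1.33 to 2.10), while MWT, MH and CxWT followed each other within counting error. Ncf1, on chr5:134695923-134705495, minus strand, was at 9.53 RPM in CxH (367 reads), 6.87 in MWT (199 reads), 5.32 in CxWT (179 reads) and 7.04 in MH (263 reads). It was the member whose levels did not put MWT above MH, with an MH to MWT ratio of 1.02 (0.848 to 1.24). Within each library the reads of Cyba were 0.689 times those of Ncf1 in CxH (0.585 to 0.811), 0.573 in MWT, 0.575 in CxWT and 0.449 in MH (0.358 to 0.560). The intervals of CxH and MH do not overlap. With ratios corrected for GC content and length, CxH vs. MH came to 0.71 for Cyba and 0.35 for Ncf1 on the log2 scale, in place of 1.06 and 0.44, so these ratios lay closer together under the correction.

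A gene was called between a pair of libraries, with the test and thresholds of the study, if its Poisson likelihood ratio test had p under 0.05 and its RPM differed by at least 0.7 on the log2 scale. Cyba was called up-regulated in CxH vs. CxWT (log2 ratio 1.10 ± 0.17), in CxH vs. MH (1.06 ± 0.16) and in CxH vs. MWT (0.74), the last no longer called with column totals as scaling (0.63), with the GC and length correction (0.25) or with an assumed variation of 0.2 between pools. It was not called in MH vs. MWT, at -0.32 ± 0.19. Ncf1 was called in CxH vs. CxWT alone of the 6 pairs, at 0.84 ± 0.13, a call that ended when pools were assumed to vary with a coefficient of 0.2. Its ratio in CxH vs. MH was 0.44 ± 0.12. Of 15 other listed oxidase subunits and relatives, 5 were analysed (Ncf4, Rac1, Noxo1, Hvcn1 and Cybc1). Only Ncf4, the p40phox subunit, was called among them, up-regulated in CxH vs. CxWT (1.11 ± 0.41) and in CxH vs. MH (0.89 ± 0.38). In these pairs 9.46% and 2.43% of all genes were called up-regulated, and the medians of the 5 were 0.04 and 0.33. Ncf4 rested on 42 reads in CxH, 25 in MWT, 17 in CxWT and 22 in MH.

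The 3 genes of Fc receptors lie on chromosome 1, at chr1:173159703-173164496 (Fcer1g), chr1:172890689-172906678 (Fcgr2b) and chr1:172981300-172995066 (Fcgr3), all on the minus strand. Fcgr2b and Fcgr3 are near copies, since 690 of 790 aligned coding bases are identical (87.3%). Reads aligned to more than 1 gene were not counted by the authors, and of all 50-base windows of the transcript, 10.7% of those of Fcgr2b also occur in Fcgr3 and 12.8% of those of Fcgr3 in Fcgr2b. The read length is not given in the sources used here. Reads of these stretches are thus missing or uncertain for both genes, in every library. A stretch of 120 coding bases shared without a difference is printed 5′ to 3′, from the transcripts of GENCODE vM1, coding bases 263 to 382 of Fcgr3 and 278 to 397 of Fcgr2b.
Fcgr3 and Fcgr2b: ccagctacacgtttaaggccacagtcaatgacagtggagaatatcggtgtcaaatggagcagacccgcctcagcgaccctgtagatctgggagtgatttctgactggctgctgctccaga

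Fcer1g was at 14.4 RPM in CxH (555 reads), 12.5 in MWT (363 reads), 7.79 in CxWT (262 reads) and 7.44 in MH (278 reads). The order was CxH, MWT, then CxWT and MH, the last pair being within counting error at 1.05-fold (0.881 to 1.24). Fcgr3 was at 29.2 RPM in CxH (1126 reads), 28.5 in MWT (824 reads), 14.5 in CxWT (486 reads) and 19.6 in MH (731 reads). CxH and MWT were within counting error of each other, at 1.03-fold (0.938 to 1.13), and MH lay 1.35-fold above CxWT (1.21 to 1.52). Fcgr2b, the inhibitory receptor, was at 6.29 RPM in CxH (242 reads), 7.70 in MWT (223 reads), 2.14 in CxWT (72 reads) and 3.08 in MH (115 reads). Here MWT was highest, 1.23-fold above CxH (1.02 to 1.48), and the 4 libraries were all apart from each other beyond counting error.

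The inhibitory receptor spanned a wider range than the activating one. The reads of Fcgr2b were 0.215 times those of Fcgr3 in CxH (0.186 to 0.247) and 0.271 in MWT (0.232 to 0.314), against 0.148 in CxWT (0.114 to 0.190) and 0.157 in MH (0.128 to 0.192). The interval of MWT overlaps neither that of CxWT nor that of MH, while that of CxH overlaps all the others. Fcgr2b was called up-regulated in CxH vs. CxWT (log2 ratio 1.55 ± 0.19) and CxH vs. MH (1.03 ± 0.16), and down-regulated in MH vs. MWT (-1.32 ± 0.17) and CxWT vs. MWT (-1.85 ± 0.20). Fcgr3 passed the threshold in CxH vs. CxWT (1.02 ± 0.078) and, as lower, in CxWT vs. MWT (-0.98 ± 0.083). The gamma chain Fcer1g was called in CxH vs. CxWT (0.89 ± 0.11), CxH vs. MH (0.95 ± 0.11) and MH vs. MWT (-0.75 ± 0.11). The last was no longer called with TMM factors as scaling (-0.69) or with an assumed variation of 0.2 between pools. In CxWT vs. MWT Fcer1g was not called, at -0.69 ± 0.12, but passed with TMM factors (-0.74).

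Tyrobp (DAP12) is an adaptor of similar function to Fcer1g, serving other myeloid receptors. Fcer1g had 0.762 times the reads of Tyrobp in CxH (0.681 to 0.853), 0.597 in MWT (0.523 to 0.681) and 1.06 in CxWT (0.885 to 1.26), and in MH both genes had 278 reads (0.844 to 1.19). The interval of MWT lies below those of CxWT and MH and ends about where that of CxH begins, at 0.681. That of CxH lies below that of CxWT and meets that of MH.

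Of 15 other Fc receptors and relatives, 5 were analysed, namely Fcgr1, Fcgr4, Fcgrt, Fcrls and Trim21. They were called up-regulated in 3 cases in CxH vs. CxWT and in 2 in CxH vs. MH, and down-regulated in 4 cases in MH vs. MWT and in 3 in CxWT vs. MWT, with median log2 ratios of 0.85, 0.54, -0.93 and -1.24 in this order of pairs. All genes were called in these directions in 9.46%, 2.43%, 12.7% and 2.11% of cases. Fcgr1 and Fcgr4, the other receptors for IgG on phagocytes, were higher in CxH and MWT than in CxWT and MH. Fcgr4 had 37 reads in CxH, 44 in MWT, 14 in CxWT and 11 in MH, with a log2 ratio of 1.71 ± 0.50 in CxH vs. MH and of -1.87 ± 0.44 in CxWT vs. MWT. Fcgr1, the high-affinity receptor, was at 0.85 ± 0.16 in CxH vs. CxWT and -1.24 ± 0.16 in CxWT vs. MWT, both called. Fcrls, a receptor-like gene used as a marker of microglia, was at 1.28 ± 0.057 and -1.56 ± 0.073 in CxH vs. MH and, in turn, CxWT vs. MWT. Fcgrt, the neonatal receptor that recycles IgG and is not confined to phagocytes, went another way, at 0.81 ± 0.075 in MH vs. MWT, called up-regulated.

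Of 25 listed genes that carry the Fc receptor signal, 21 were analysed. Up-regulated calls numbered 10 and down-regulated calls 1 in CxH vs. CxWT, 2 and 3 in MH vs. MWT, 4 and 0 in CxH vs. MH, and 1 and 6 in CxWT vs. MWT. Over all genes, up- and down-regulated calls were 9.46% and 11.5%, 12.3% and 12.7%, 2.43% and 1.06%, and 5.43% and 2.11% in these pairs, so that in MH vs. MWT the share of called signaling genes was near that of all genes. Their median log2 ratio was 0.67 in CxH vs. CxWT and -0.14 in MH vs. MWT. The tyrosine kinase Syk was at 1.20 in CxH vs. CxWT and -0.51 in CxWT vs. MWT, the latter not called. Ptpn6 (SHP-1), a phosphatase of inhibitory receptors, was at 1.34 in CxH vs. CxWT and -0.98 in CxWT vs. MWT. Prkcd, a kinase that thalamic neurons also express, was the one gene called lower in CxH vs. CxWT, at -2.82 ± 0.061, and stood at -2.43 ± 0.057 in MH vs. MWT. Between the libraries with the same area markers it was at -0.35 ± 0.076 (CxH vs. MH) and 0.04 ± 0.034 (CxWT vs. MWT).

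Itgam, on chr7:135206154-135271674 of the plus strand, was the steadiest member. It was at 33.1 RPM in CxH (1275 reads), 31.0 in MWT (898 reads), 21.3 in CxWT (715 reads) and 25.6 in MH (955 reads). CxH and MWT were within counting error of each other, at 1.07-fold (0.979 to 1.16), with MH and then CxWT below, each step beyond counting error. No pair of libraries reached the threshold, the largest log2 ratio being 0.64 ± 0.067 in CxH vs. CxWT, which passed only with TMM factors (0.73) or DESeq2 size factors (0.73) as scaling. Its partner Itgb2 was called up-regulated in CxH vs. CxWT (1.01 ± 0.11) and in CxH vs. MH (1.02 ± 0.11). The reads of Itgam were 2.30 times those of Itgb2 in CxH (2.08 to 2.55), 2.92 in MWT (2.56 to 3.33), 2.97 in CxWT (2.56 to 3.45) and 3.59 in MH (3.13 to 4.13). Of 10 listed beta2 integrins and partners other than Itgam, 6 were analysed, of which 4 were called up-regulated in CxH vs. CxWT, 2 in CxH vs. MH, 0 in MH vs. MWT, and 1 was called down-regulated in CxWT vs. MWT, where the shares over all genes were 9.46%, 2.43%, 12.3% and 2.11%.

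Lyz2, on chr10:116714390-116719377 of the minus strand, was at 75.6 RPM in CxH (95% exact Poisson interval 72.9 to 78.4), 77.4 in MWT (74.2 to 80.6), 19.8 in CxWT (18.4 to 21.4) and 20.3 in MH (18.9 to 21.8). The libraries thus formed a high and a low pair. MWT and CxH were within counting error, at 1.02-fold (0.967 to 1.08), as were MH and CxWT, at 1.03-fold (0.923 to 1.14), and CxH was 3.72-fold above MH (3.43 to 4.03). MWT was 3.90-fold above CxWT (3.57 to 4.26). Lyz2 was called in the 4 pairs that set a high against a low library, at log2 ratios of 1.93 ± 0.062 in CxH vs. CxWT, -1.93 ± 0.061 in MH vs. MWT, 1.89 ± 0.059 in CxH vs. MH and of -1.96 ± 0.064 in CxWT vs. MWT. In CxH vs. MH 0.158% of all genes had a higher ratio, and in CxWT vs. MWT 0.102% had a lower one.

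The mouse has a second lysozyme gene, Lyz1, known from Paneth cells of the gut, and the pair differ at few places. Of 447 coding bases 425 are identical (95.1%), and 15.4% of the 50-base windows of the Lyz2 transcript occur in Lyz1, so reads of that length could not be counted there for either gene. The first 120 coding bases of both are printed 5′ to 3′ from the transcripts of GENCODE vM1, to show how far reads can tell them apart, with the 11 bases that differ in capitals.
Lyz2: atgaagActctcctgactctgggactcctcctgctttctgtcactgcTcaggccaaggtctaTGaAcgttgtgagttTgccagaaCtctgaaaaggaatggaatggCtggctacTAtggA
Lyz1: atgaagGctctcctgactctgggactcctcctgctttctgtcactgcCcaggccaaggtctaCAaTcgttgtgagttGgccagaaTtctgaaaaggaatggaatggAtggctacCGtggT
Reads of Lyz2 were 6.77 times those of Lyz1 in CxH (6.12 to 7.51), 6.93 in MWT (6.17 to 7.81), 5.25 in CxWT (4.34 to 6.40) and 4.04 in MH (3.44 to 4.77). Lyz1 itself was at 11.2 RPM in CxH and MWT, 3.78 in CxWT and 5.03 in MH, and how much of this is misplaced Lyz2 reads was not tested.

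Of 13 listed lysozymes and lysosomal genes other than Lyz2, 7 were analysed. Up-regulated calls numbered 6 in CxH vs. CxWT and 7 in CxH vs. MH, and down-regulated calls 4 in MH vs. MWT and 4 in CxWT vs. MWT, with median log2 ratios of 1.35, 0.99, -0.91 and -1.36. The calls over all genes in these pairs and directions were 9.46%, 2.43%, 12.7% and 2.11%. Gpnmb, a glycoprotein of lysosomes in macrophages, was at 2.10 ± 0.13 in CxH vs. CxWT, -0.91 ± 0.12 in MH vs. MWT, 1.47 ± 0.11 in CxH vs. MH and at -1.54 ± 0.14 in CxWT vs. MWT.

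Slamf9, on chr1:174405489-174408706 of the plus strand, had the fewest reads of the members. It was at 2.70 RPM in CxH (104 reads, 2.21 to 3.27 RPM), 3.66 in MWT (106 reads, 3.00 to 4.43), 0.952 in CxWT (32 reads, 0.651 to 1.34) and 0.910 in MH (34 reads, 0.630 to 1.27). MWT was 1.36-fold above CxH (1.02 to 1.79) and CxWT and MH were within counting error of each other. Log2 ratios were 1.50 ± 0.29 in CxH vs. CxWT, -2.01 ± 0.28 in MH vs. MWT, 1.57 ± 0.29 in CxH vs. MH, with -1.94 ± 0.29 in CxWT vs. MWT, all called. Of 11 other listed SLAM family genes 3 were analysed, Cd48, Cd84 and Ly9, and each was called in the same 4 pairs in the same directions, in which 9.46%, 12.7%, 2.43% and 2.11% of all genes were called. Ly9, better known from lymphocytes, was at 1.24 ± 0.19 in CxH vs. MH and at -2.10 ± 0.24 in CxWT vs. MWT. Cd48, a ligand and receptor on many blood cells, was at 1.20 ± 0.29 and -1.83 ± 0.27.

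The start regions of Slamf9 and Lyz2, the members with the widest spans, and of Itgam, the one with the narrowest, are printed for comparison. They hold 250 bases before and 50 after the start, 5′ to 3′ in the direction of the gene, from RefSeq (GRCm38.p6), and were placed on NCBI37/mm9 by exact match. Capitals mark the letters GAGGAA, or TTCCTC on the other strand, the core that the myeloid factor PU.1 (Spi1) is known to bind. Slamf9 lies at chr1:174405241-174405540 (plus strand), Lyz2 at chr10:116719279-116719578 (minus strand) and Itgam at chr7:135205904-135206203 (plus strand).
Slamf9: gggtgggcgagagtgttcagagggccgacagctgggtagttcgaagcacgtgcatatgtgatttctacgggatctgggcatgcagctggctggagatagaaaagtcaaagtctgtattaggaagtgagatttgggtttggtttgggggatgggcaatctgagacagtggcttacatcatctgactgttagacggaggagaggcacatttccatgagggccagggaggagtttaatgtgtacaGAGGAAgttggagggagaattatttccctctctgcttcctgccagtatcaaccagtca
Lyz2: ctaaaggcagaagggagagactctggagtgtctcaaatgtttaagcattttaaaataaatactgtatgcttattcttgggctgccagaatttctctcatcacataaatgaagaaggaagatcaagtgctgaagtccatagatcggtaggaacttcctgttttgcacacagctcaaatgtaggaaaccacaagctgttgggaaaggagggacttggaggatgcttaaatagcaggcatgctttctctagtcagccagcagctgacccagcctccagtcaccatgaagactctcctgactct
Itgam: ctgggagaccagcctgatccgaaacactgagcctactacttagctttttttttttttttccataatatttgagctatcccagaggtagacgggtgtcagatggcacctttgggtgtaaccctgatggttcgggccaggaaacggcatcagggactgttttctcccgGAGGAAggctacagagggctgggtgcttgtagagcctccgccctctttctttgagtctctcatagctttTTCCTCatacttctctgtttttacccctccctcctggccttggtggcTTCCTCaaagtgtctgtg
Slamf9 has 1 match, 8 bases before the start, and Itgam has 3, at 84 and 15 bases before and 33 bases after it. Of the 8 members 3 hold a match in this window, Fcgr3 being the third. So do 28.3% of 27025 RefSeq promoters of the same length, and 26.1% of the 10086 that belong to genes of the table. TTGCNNAA, the letters bound by C/EBP factors, was found in 1 of the 8 (Fcgr3), beside 10.8% of all these promoters and 7.76% of those of table genes. Spi1 itself was called up-regulated in CxH vs. CxWT (log2 ratio 1.11 ± 0.21) and CxH vs. MH (0.72 ± 0.18), and its ratio was -0.01 ± 0.26 in CxWT vs. MWT.

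Taking the members together, in CxH vs. CxWT 7 of the 8 were called up-regulated and 0 down-regulated, beside 9.46% and 11.5% of all genes (20.9% in either direction), and Itgam was the one not called. Their median log2 ratio was 1.06, that of all genes -0.09. In MH vs. MWT 0 were called up-regulated and 4 down-regulated (Fcer1g, Fcgr2b, Lyz2 and Slamf9), beside 12.3% and 12.7% of all genes (25.0% in either direction), with medians of -0.65 and -0.07. Opposite calls in the areas, higher in CxH than CxWT and lower in MH than MWT, were thus found for 4 of 8, and for 55 genes of the table (0.433%). The log2 ratio in Cx less that in M ran from 0.81 ± 0.19 (Ncf1) and 0.92 ± 0.10 (Itgam) to 3.51 ± 0.41 (Slamf9) and 3.86 ± 0.087 (Lyz2). With 1 library per condition this difference between areas has no test beyond counting error. The members were chosen with earlier results of these data known, so their counts beside the shares of all genes are no test of the list.

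**Figure D3:**
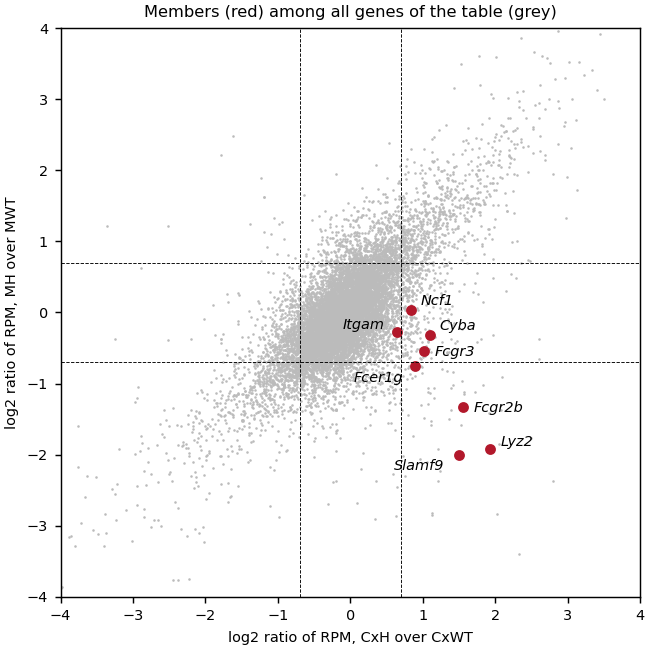
Log2 ratio of RPM in CxH over CxWT (horizontal) against MH over MWT (vertical) for all genes of the table (grey) and the 8 members (red, named), with dashed lines at 0.7 in size and 57 genes outside the plotted range. The members lie to the right of 0 and, but for Ncf1 (0.84 and 0.03), below 0 on the vertical axis, with Lyz2 (1.93 and -1.93) and Slamf9 (1.50 and -2.01) farthest out.

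**Figure D4:**
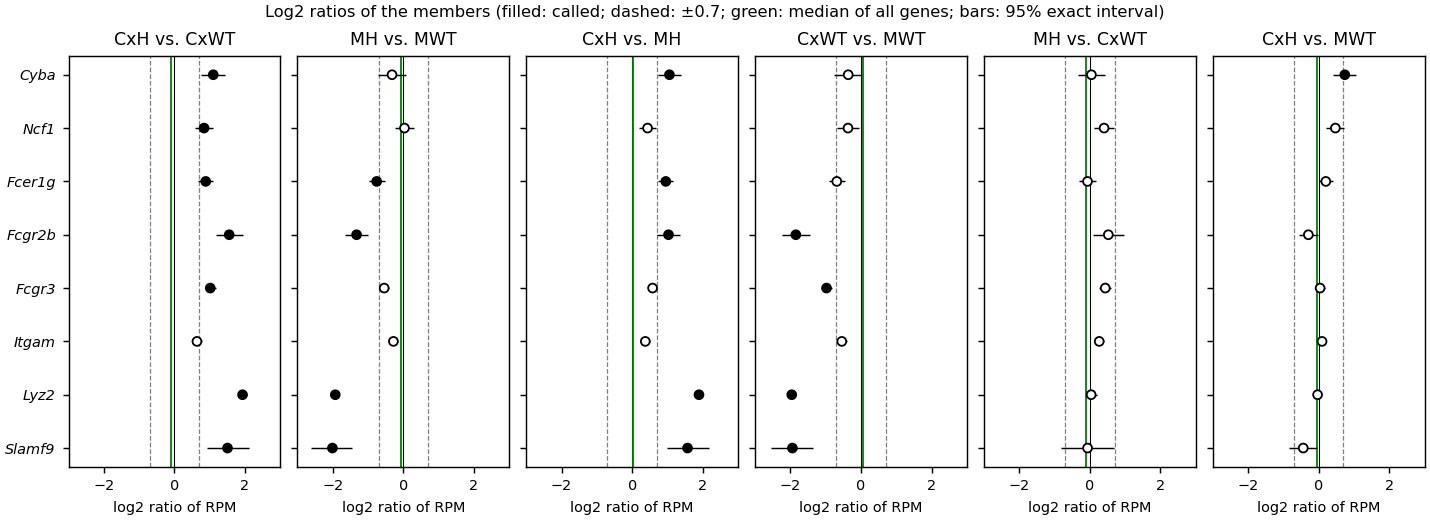
Log2 ratios of RPM of the 8 genes in the 6 pairs of libraries (filled where called), with 95% exact intervals from the reads, dashed lines at 0.7 in size and a green line at the median of all genes. Ratios of CxH vs. CxWT and CxH vs. MH lie above 0 (medians 1.06 and 0.99), those of CxWT vs. MWT below 0 (median -0.83), and those of MH vs. CxWT and CxH vs. MWT spread around 0 (medians 0.15 and 0.07).

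The comparisons between areas of one genotype used the same libraries again, so they are not separate evidence. In CxH vs. MH 5 members were called up-regulated (Cyba, Fcer1g, Fcgr2b, Lyz2 and Slamf9) and 0 down-regulated, beside 2.43% and 1.06% of all genes (3.50% in either direction). In CxWT vs. MWT 0 were called up-regulated and 4 down-regulated (Fcgr2b, Fcgr3, Lyz2 and Slamf9), beside 5.43% and 2.11% of all genes (7.54% in either direction). The medians of the members were 0.99 and -0.83, those of all genes 0.01 and 0.04. The area labels therefore went with opposite directions in the 2 genotypes, and 3 members (Fcgr2b, Lyz2 and Slamf9) passed the threshold in both, as did 81 genes of the table (0.638%). These are also the pairs whose libraries carried the same neuronal markers.

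The other 2 pairs differ in both labels. In MH vs. CxWT 0 of the 8 members were called, beside 6.41% of genes up-regulated and 8.89% down-regulated (15.3% in either direction), and the median was 0.15 beside -0.11 for all genes. In CxH vs. MWT Cyba alone was called, up-regulated, beside 15.6% of genes up-regulated and 15.1% down-regulated (30.7% in either direction), with a median of 0.07 that turned to -0.04 with column totals as scaling and went to 0.27 with the GC and length correction. In each of these pairs the libraries differed in their neuronal markers and had Ids both low (CxH and MWT) or both high (MH and CxWT). The medians of the members lay nearer 0 than in the 4 pairs above.

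Microglia can be measured by genes other than the members. The summed level of the 11 analysed of 13 markers of homeostatic microglia was 579 RPM in CxH, 479 in MWT, 375 in CxWT and 450.2 in MH, with a log2 ratio of 0.36 in CxH vs. MH and of -0.35 in CxWT vs. MWT. The markers stood at 0.63 in CxH vs. CxWT. In these 3 pairs the ratios had the signs of the member medians and were smaller. In CxH vs. MWT and MH vs. CxWT the markers were at 0.27 and 0.26, above the member medians of 0.07 and 0.15. Less the ratio of the markers, the members were at a median of 0.63 in CxH vs. MH, from 0.01 (Itgam) and 0.07 (Ncf1) to 1.21 ± 0.29 (Slamf9) and 1.53 ± 0.061 (Lyz2). In CxWT vs. MWT they were at a median of -0.48, from -0.01 (Cyba) to -1.59 (Slamf9) and -1.61 (Lyz2). Ncf1 lay at the markers in both pairs and Itgam near them (-0.19 in the second), while Lyz2, Slamf9 and Fcgr2b (0.67 and -1.49) lay farther off. In MH vs. MWT, where the markers were at -0.09, 7 of the 8 lay below them and Ncf1 0.12 above.

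Other cells that carry these genes were looked at by their own markers. Of 13 neutrophil markers 4 were analysed, summing to 20.2 RPM in CxH, 14.7 in MWT, 10.6 in CxWT and 10.3 in MH, and S100a8, a protein that neutrophils hold in abundance, had 85, 69, 45 and 22 reads. All 4 were called up-regulated in CxH vs. MH, and 2 were called down-regulated in CxWT vs. MWT, beside 2.43% and 2.11% of all genes. The 3 analysed of 8 blood monocyte markers summed to 116, 96.7, 74.8 and 81.5 RPM, and the 5 analysed of 10 border macrophage markers to 36.8, 19.8, 17.4 and 21.5 RPM. Of 11 lymphocyte and NK cell markers 0 were analysed. The 2 analysed of 8 red cell markers, a sign of blood in the tissue, went the other way, at 125, 77.1, 254 and 186 RPM. Most of this sum was Hba-a1, while Alas2 differed less, at 7.43, 7.08, 8.60 and 9.77 RPM. The sums of neutrophil and of monocyte markers were thus higher in CxH and MWT than in CxWT and MH, as the members' sum was. Csf3r made up most of the neutrophil sum, at 14.3 RPM in CxH, 9.33 in MWT, 7.53 in CxWT and 8.38 in MH. The monocyte sum was that of Ly6c1, Ly6c2 and Fn1. Whether the reads of these genes came from blood cells was not tested. Single markers did not all follow, as the monocyte marker Fn1 was at 45.7 RPM in MH and 37.4 in MWT. The part of these cells in the levels of the members was not tested.

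Of 11 listed myeloid transcription factors 9 were analysed, and 5 were called up-regulated in CxH vs. CxWT and 3 in CxH vs. MH, while in MH vs. MWT and CxWT vs. MWT 2 and 1 were called up-regulated and 0 down-regulated. In CxH vs. MWT 5 were called up-regulated. Up-regulated calls over all genes were 9.46%, 2.43%, 12.3%, 5.43% and 15.6% in these pairs. Irf8, needed for microglia, was at 0.87 ± 0.13 in CxH vs. MH and at -0.51 ± 0.16 in CxWT vs. MWT, the latter not called.

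**Figure D5:**
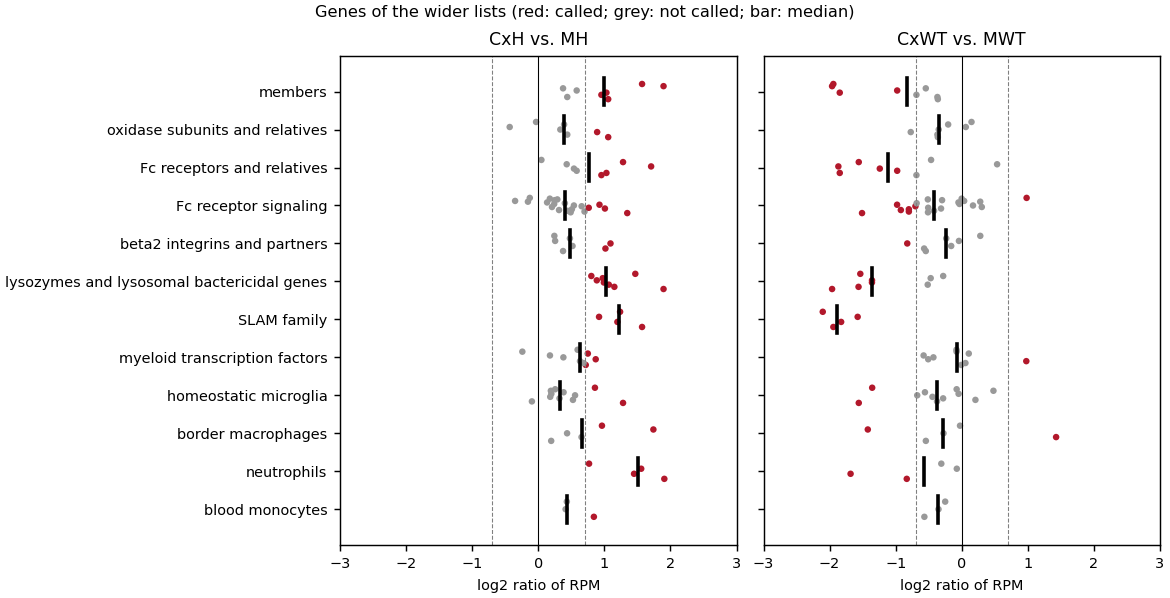
Log2 ratios of RPM of the genes of each list, members included, in CxH vs. MH and, in turn, CxWT vs. MWT, each point 1 gene (red where called, grey where not), with bars at list medians and dashed lines at 0.7 in size. SLAM genes (medians 1.22 and -1.88) lie farther from 0 than homeostatic microglia markers (0.32 and -0.37) and myeloid transcription factors (0.63 and -0.08).

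The genes whose pattern over the 4 libraries was nearest to the mean of the members, by root mean square distance of centred log2 levels among genes with at least 100 reads in some library, were Ifi30 (0.0630), Fyb (0.0840), Uqcrq (0.0905), Myo1f (0.0991) and Hpse (0.115). Ifi30 encodes a lysosomal thiol reductase of antigen presenting cells, Fyb an adaptor of blood cells, Myo1f a myosin of leukocytes, Hpse the heparan sulfate degrading enzyme heparanase, and Uqcrq a subunit of respiratory complex III. Of the members, Fcer1g (0.148) and Fcgr3 (0.156) lay nearest to that mean and Slamf9 (0.417) and Lyz2 (0.452) farthest from it.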

How the data were processed

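RNA of the 4 conditions was sequenced by the authors on a SOLiD 3 Plus instrument in 1 run, aligned to NCBI37/mm9 with PASS (best hit, at most 2 mismatches, no gap) and counted. The authors deposited raw counts of reads aligned to a single gene, for genes with reads over more than 50% of the gene, so a gene under that coverage cannot enter. The gene annotation and the use of strand are not given in the sources used here, so overlapping genes on opposite strands are uncertain.

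Symbols were assigned to 12690 of 12700 gene identifiers, and 12444 matched GENCODE vM1 for positions and transcript lengths. Counts were divided by the aligned reads that the study gives per library (RPM). A Poisson likelihood ratio test between 2 libraries was run on every gene, in steps tested on simulated data, with a count of 0 set to 1 for the ratio. Ratio intervals are exact binomial and level intervals exact Poisson, at 95%, and cover counting error only, as reads copied by PCR are not separate molecules. Genes were named if members, Ids, genes of the lists, or the 5 nearest in pattern. Members and lists were chosen with earlier results of these data known. Alternatives were other scalings (column totals, TMM of edgeR, DESeq2 size factors), a log2 threshold of 1, a minimum of 100 reads, an exact test of edgeR with an assumed variation of 0.2 between pools, 0.5 added to counts, and ratios corrected for GC content and length. Python 3.11.15, scipy 1.17.1, R 4.3.3, edgeR 4.0.16 and also DESeq2 1.42.0 were used.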

Additional observations from a re-analysis of the deposited data

Results flagged for a closer look

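For 4 members the comparison of Ids-ko with wt passed the threshold in opposite directions in the 2 areas, higher in the library labelled CxH than in CxWT and lower in the one labelled MH than in MWT. It did so for 55 genes of the table (0.433%). The call of Fcer1g in MH vs. MWT ended with TMM factors, DESeq2 size factors or the GC and length correction. It also ended with a log2 threshold of 1 or an assumed variation of 0.2 between pools. The log2 ratio in Cx less that in M was 1.64 for Fcer1g, 2.88 for Fcgr2b, 3.86 for Lyz2 and 3.51 for Slamf9. With 1 library per condition the difference between areas was not tested beyond counting error. Ids was low in CxH and MWT, and the neuronal markers of CxWT and MH went against their area labels, so the directions are those of the labels.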

How the results depend on the processing

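No paired analysis was run, since each condition has 1 library and no replicate numbers to pair, and for the same reason no library could be left out. The areas of a genotype share mice by the methods, but an additive fit of area and genotype over the 4 libraries, which takes the genotypes as replicates of the area effect, was not run. Under the alternatives 420 values were recomputed, and no log2 ratio of a called member changed sign. A log2 threshold of 1 and the assumed variation leave the ratios themselves as they were, and counts have no sign. Those values could therefore not show a change of sign. Of the counts and medians over the members, 77 stayed within 1.5 times (counts) or within the median of the members' 95% counting intervals (medians), and 7 moved. Within these limits the members called ran from 5 to 8 in CxH vs. CxWT, 3 to 4 in MH vs. MWT, 4 to 5 in CxH vs. MH and 3 to 5 in CxWT vs. MWT, and the median in CxH vs. MWT turned to -0.04 with column totals. Corrected for GC content and length, the median log2 ratio of the members was -0.44 in MH vs. MWT, 0.71 in CxH vs. MH and 0.27 in CxH vs. MWT. Members called in CxH vs. MWT numbered 0 in place of 1 with column totals as scaling, with a log2 threshold of 1, with an assumed variation of 0.2 between pools and with the GC and length correction, under which Cyba was at 0.25. Of the values of single genes, 14 lost the call, 5 gained it and 317 did neither. Fcer1g in MH vs. MWT lost it with DESeq2 size factors (-0.69) and with the GC and length correction (-0.42). Over all genes, a log2 threshold of 1 left as higher and lower 691 and 710 in CxH vs. CxWT, 869 and 773 in MH vs. MWT, 194 and 101 in CxWT vs. MWT, 109 and 34 in CxH vs. MH, 497 and 567 in MH vs. CxWT and 1107 and 854 in CxH vs. MWT. The assumed variation left 151 and 40 in CxH vs. MH, then 359 and 128 in CxWT vs. MWT and 1477 and 1274 in CxH vs. MWT, and the GC and length correction 178 and 120, and 248 and 151, in the same pairs and 1044 and 959 in CxH vs. MWT. A minimum of 100 reads left 223 and 89 in CxH vs. MH. The share of calls that were higher moved from 45.2% to 56.0% with TMM factors in CxH vs. CxWT and from 41.9% to 54.2% in MH vs. CxWT, where the median of all genes moved from -0.11 to -0.00364. With column totals it moved from 69.6% to 58.4% in CxH vs. MH, from 72.0% to 55.2% in CxWT vs. MWT and from 50.8% to 39.1% in CxH vs. MWT. The depth leaves the ratios of Slamf9, at 32 to 106 reads, the least precise of the members.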
